A study of Mus musculus with 8 samples.

Results

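The Tom-low and Tom-high cells of control lungs were compared on 1 array each, which are 2 of the 8 arrays of the study. In the terms of the study, sorted Tom-low cells are injury activated alveolar progenitors (C-IAAPs in controls) and Tom-high cells are mature alveolar type 2 cells (C-AT2s). Control mice carried Sftpc CreERT2/+ and tdTomato flox/flox alleles with wild-type Fgfr2b, and both control arrays were from day 7 of tamoxifen at 1 mg/ml in the drinking water. The other 6 arrays held E-IAAPs and E-AT2s at days 4, 7 and 14 from experimental mice, which carried Fgfr2b flox/flox alleles besides the same Cre and reporter and drank the same water. Mice of both sexes, aged 9 to 12 weeks by the sample records, were used. The Cre enzyme is driven by the Sftpc gene in these mice, so the reporter marks cells that have used Sftpc, and the brightness of the reporter is what separates Tom-low from Tom-high. Lung cells were stained for EpCAM, CD49f (the product of Itga6), PDPN and CD274 (PD-L1) and with a live/dead dye before the sort. No staining for the leukocyte antigen CD45 is described for the sort. The sources used here do not say whether 1 mouse or several gave the RNA of an array.

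Values are log2 spot signals after background correction and quantile normalization, which gives every array the same distribution of signals. A signal therefore ranks a spot among the other spots of its array. Each of 24306 genes was represented by its brightest spot on average over the arrays, and 4775 genes with a log2 signal of 10 or more on either control array were compared. A gene was counted past 4-fold when the log2 signals differed by more than 2. With 1 array for each group there is no replicate error and no test of the control difference. In sorted bulk cells, fewer cells of a type and less RNA per cell cannot be told apart.

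AT2 cells are the epithelial cells of the alveolus that make surfactant, the mixture of lipids and proteins that lowers surface tension, store it in lamellar bodies and secrete it, and they renew the alveolar lining. This work needs a large secretory route, since surfactant proteins enter the endoplasmic reticulum, pass the Golgi and are stored before release. Alveolar macrophages share the same air space. They take up and break down used surfactant, and they are known by surface and secreted proteins such as Marco, Siglecf, Chil3 and the Ear ribonucleases.

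Of the 4775 genes, 425 were past 4-fold higher in C-IAAPs (8.9%) and 294 were past 4-fold lower (6.16%), so that 15.1% lay outside the 4-fold lines. The median difference over all 4775 genes was 0.04, with 2461 genes higher than 0 and 2313 lower. Higher genes made up 59.1% of those past 4-fold, and 35.4% when each array was centred on genes used by every cell, which moved the median of all genes to -0.38. The 34 such genes above the signal limit had a median difference of -0.22 before centring, so centring moved them further from 0. The centred counts are therefore a variant and not a correction. At the line, Gm33950 was just inside at 2.001 and St6galnac1 just outside at 1.984 on the higher side. On the lower side Cox6b2 was just inside at -2.004 and Ypel2 just outside at -1.999.

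**Figure D1:**
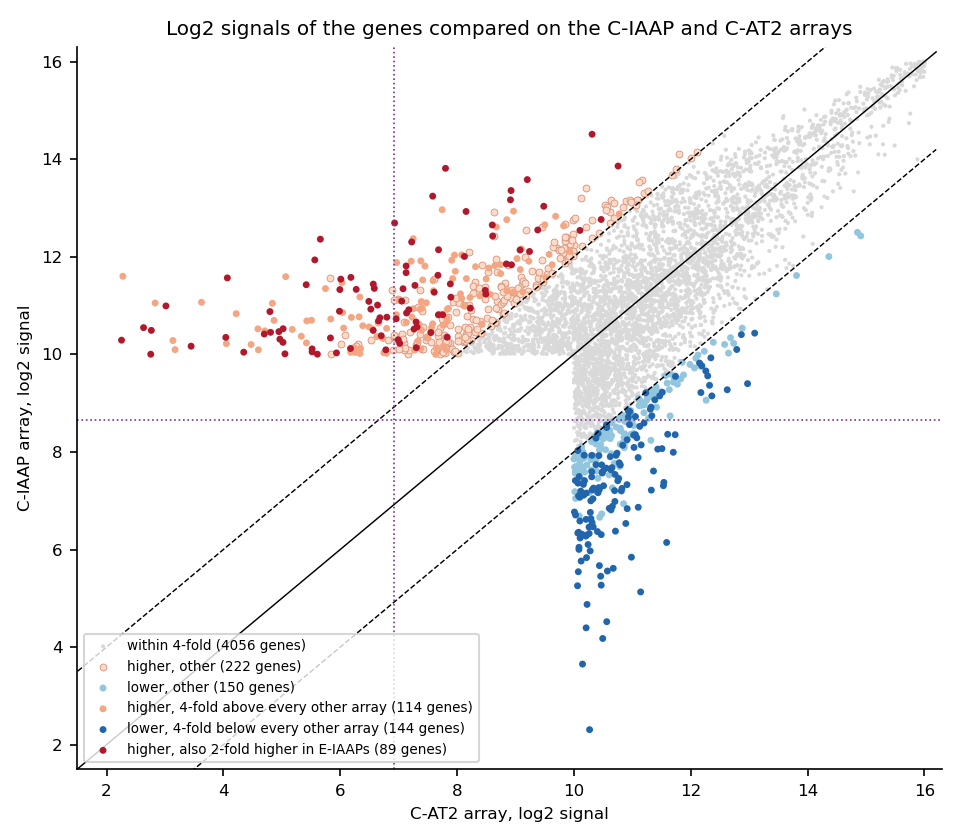
Log2 signal of 4775 genes on the C-IAAP array (vertical axis) against the C-AT2 array (horizontal axis), 1 point per gene; the solid line marks equal signals, dashed lines a 4-fold difference, and dotted lines the background level of each array, 8.66 in C-IAAPs and 6.92 in C-AT2s. The 425 genes above the upper dashed line and the 294 below the lower one are coloured by how they behaved on the other arrays, and most of the 294 lie below the C-IAAP background line.

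The C-IAAP array differed from all the others in ways that touch every value below. The background level of an array was taken as the 95 percentile of 1382 sensory receptor genes (olfactory, vomeronasal and taste), which lung does not need. It was 8.66 on the C-IAAP array, against 6.92 on the C-AT2 array and 6.45 to 7.28 on the 6 mutant arrays. Only 26.8% of genes were above it on the C-IAAP array, against 40.8% to 46.5% on the others. Of 2922 genes with a signal of 10 or more on all the other 7 arrays, 71 were below background on the C-IAAP array, while 0 genes were lost in this way on any other array. Both measures use each array's own background level, so the higher level of the C-IAAP array enters both. Pearson's r over all genes was 0.845 to 0.876 between the C-IAAP array and the others and 0.915 to 0.971 among the others. Both control arrays had a high signal of the Y-linked gene Eif2s3y, 11.39 in C-IAAPs and 11.05 in C-AT2s, and a low one of Xist, 6.04 in C-IAAPs and 6.43 in C-AT2s, so the pair matched in these sex-linked genes. The day 4 and day 7 mutant arrays had the same pattern, but both day 14 arrays had the opposite one, with Xist at 13.30 in E-IAAPs and 13.52 in E-AT2s and Eif2s3y at 2.14 in E-IAAPs and 2.69 in E-AT2s, so day 14 and sex cannot be told apart in the mutants. Where the dimmer signal is below background, a fold is given as at least N-fold, from the background level.

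Promoters of the genes that lay past 4-fold together are shown with short motifs marked, whose shares in each group are given after the sequences and were not tested. The windows are the 250 bases before the gene start in RefSeq (GRCm38.p6), written 5′ to 3′ on the strand of the gene. The core site of PU.1, the factor that directs macrophage and other myeloid genes, was searched as GAGGAA on both strands, and a site for ETS factors, common in promoters of housekeeping and mitochondrial genes, as CCGGAAGT on both strands. Both motifs share the letters GGAA, and neither contains the other. Capitals mark the motif on either strand. The first 3 promoters belong to genes higher in C-IAAPs and in E-IAAPs: Clec7a (chr6:129472780-129473029, minus strand), Laptm5 (chr4:130913066-130913315, plus strand) and Ctss (chr3:95526536-95526785, plus strand). The last 2 belong to mitochondrial genes lower in C-IAAPs: Phb2 (chr6:124712039-124712288, plus strand) and Mrpl18 (chr17:12916092-12916341, minus strand).
Clec7a: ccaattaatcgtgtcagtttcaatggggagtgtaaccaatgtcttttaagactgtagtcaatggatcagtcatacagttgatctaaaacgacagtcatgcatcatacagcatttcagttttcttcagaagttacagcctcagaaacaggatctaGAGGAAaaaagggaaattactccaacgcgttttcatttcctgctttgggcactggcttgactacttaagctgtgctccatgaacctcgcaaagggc
Laptm5: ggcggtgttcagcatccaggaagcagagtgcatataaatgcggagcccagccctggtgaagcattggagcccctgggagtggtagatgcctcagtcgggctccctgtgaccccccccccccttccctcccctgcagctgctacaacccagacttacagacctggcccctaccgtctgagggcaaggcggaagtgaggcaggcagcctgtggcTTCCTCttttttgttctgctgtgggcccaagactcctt
Ctss: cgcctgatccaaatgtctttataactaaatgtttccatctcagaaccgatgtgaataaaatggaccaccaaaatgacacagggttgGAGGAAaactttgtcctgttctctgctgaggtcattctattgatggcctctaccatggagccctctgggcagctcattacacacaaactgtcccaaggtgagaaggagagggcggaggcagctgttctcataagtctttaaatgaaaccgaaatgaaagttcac
Phb2: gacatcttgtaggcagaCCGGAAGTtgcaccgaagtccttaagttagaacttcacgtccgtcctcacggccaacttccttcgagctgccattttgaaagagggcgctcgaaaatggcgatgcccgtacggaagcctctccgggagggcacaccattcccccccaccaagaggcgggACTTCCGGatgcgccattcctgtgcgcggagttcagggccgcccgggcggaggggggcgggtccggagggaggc
Mrpl18: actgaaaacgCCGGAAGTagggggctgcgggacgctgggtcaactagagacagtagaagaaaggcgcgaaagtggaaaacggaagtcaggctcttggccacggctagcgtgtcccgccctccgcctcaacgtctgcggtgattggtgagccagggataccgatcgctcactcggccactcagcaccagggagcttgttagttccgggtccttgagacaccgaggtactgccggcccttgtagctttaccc

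A promoter was matched for 328 of the 425 higher genes and 242 of the 294 lower ones. The PU.1 core was found in 26 of the 73 matched promoters of genes higher in both genotypes (35.6%), in 22 of the 91 matched among genes bright on the C-IAAP array alone (24.2%), in 90 of the 328 higher genes (27.4%) and in 48 of the 242 lower genes (19.8%), against 22.6% of the 3836 matched promoters of all compared genes and 23.1% of all 27025 promoters of the table. The ETS site was found in 0 of the 73, in 5 of the 328 (1.52%) and in 21 of the 242 (8.68%), against 5.32% of the 3836 and 2.93% of all 27025. A match gives the letters and not a bound site.

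The genes that define AT2 cells were almost as bright in C-IAAPs as in C-AT2s. Of 35 AT2 genes on a list, 34 were above background in C-IAAPs and 35 in C-AT2s, with median signals of 13.42 in C-IAAPs and 13.96 in C-AT2s. The label of both sorts as alveolar type 2 cells therefore has its defining markers on both arrays. Sftpc, the surfactant protein C gene that drives the Cre enzyme, had a log2 signal of 15.79 in C-IAAPs and 16.00 in C-AT2s, where 16.00 is also the highest value an array holds, so its difference cannot be read. Sftpb, the gene of surfactant protein B, had 13.69 in C-IAAPs and 14.54 in C-AT2s, though its other spot above the limit differed by 0.55, the opposite way. Sftpa1, of surfactant protein A, had 14.21 in C-IAAPs and 14.11 in C-AT2s. Sftpb and Sftpa1 thus differed by less than 2-fold. Sftpd had 14.31 in C-IAAPs and 15.06 in C-AT2s, and Slc34a2, the phosphate carrier of AT2 cells, had 15.50 and 15.82 in the same order. Abca3, the lipid pump of lamellar bodies, had 11.13 in C-IAAPs and 11.27 in C-AT2s, and Lamp3, a lamellar body membrane protein, had 13.28 in C-IAAPs and 14.05 in C-AT2s. Nkx2-1, the transcription factor of lung epithelium, had 14.05 in C-IAAPs and 14.23 in C-AT2s.

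Although small, most of these differences ran the same way: 31 of the 35 AT2 genes had a lower signal in C-IAAPs. The median over the 34 above the signal limit was -0.58, against 0.04 for all genes, and on the mutant arrays it was -0.21, -0.29 and -0.98 at days 4, 7 and 14. Acoxl, a peroxisomal oxidase gene, was the 1 AT2 gene past 4-fold, with 7.93 in C-IAAPs and 10.18 in C-AT2s, or at least 2.86-fold lower. Pla2g1b, a secreted phospholipase on the list of surfactant and lamellar body genes, had 10.02 in C-IAAPs and 12.65 in C-AT2s, 6.15-fold lower. Among 21 lipid synthesis genes the C-IAAP signal was below the C-AT2 signal in 17 (median -0.92), with 0 past 4-fold lower. Srebf1, the factor that turns on fatty acid synthesis, had 9.17 in C-IAAPs and 11.07 in C-AT2s, and Fasn, the fatty acid synthase, 12.75 in C-IAAPs and 13.15 in C-AT2s. The opposite case on that list was Agpat4, an acyltransferase, with 10.95 in C-IAAPs and 8.23 in C-AT2s.

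Genes of the FGF pathway were split. Fgfr2, the receptor gene, had 11.72 in C-IAAPs and 12.45 in C-AT2s, and Etv5, a transcription factor downstream of FGF receptors, had 13.18 in C-IAAPs and 12.70 in C-AT2s. Of 12 pathway genes above the limit, 5 were brighter in C-IAAPs and 7 dimmer. Fgf1, the gene of a ligand, was the 1 past 4-fold, with 12.50 in C-IAAPs and 14.85 in C-AT2s, but its other spot above the limit differed by -0.01. Mki67, the marker of dividing cells, had 9.62 in C-IAAPs and 6.45 in C-AT2s, against 10.91, 10.89 and 11.63 in E-IAAPs and 8.95, 12.35 and 10.94 in E-AT2s at days 4, 7 and 14. Among 8 genes of the S, G2 and M phases above the limit, 5 were brighter in C-IAAPs and 3 dimmer, and Aurkb, a mitotic kinase, was the 1 past 4-fold with 11.15 in C-IAAPs and 8.92 in C-AT2s. Etv4, a relative of Etv5, had 11.32 in C-IAAPs and 9.68 in C-AT2s.

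Markers of the alveolar type 1 cell, the flat cell of gas exchange, did not separate the sorts as a group. Ager had 14.15 in C-IAAPs and 14.46 in C-AT2s, and Aqp5, a water channel, had 13.09 in C-IAAPs and 13.77 in C-AT2s. Others were higher in C-IAAPs but near background there: Pdpn, used in the sort, had 9.06 in C-IAAPs and 4.61 in C-AT2s, Hopx had 9.44 in C-IAAPs and 7.21 in C-AT2s, and Rtkn2 had 9.58 in C-IAAPs and 5.36 in C-AT2s. Of 22 AT1 genes, 13 were brighter in C-IAAPs and 9 dimmer. Among the 11 above the signal limit, 5 were brighter and 6 dimmer (median -0.09). Itga6, whose product was also stained for before the sort, had 13.35 in C-IAAPs and 11.84 in C-AT2s and 11.38 to 12.22 on the mutant arrays.

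Genes of macrophages and other leukocytes were among the 425 higher genes. They were 9 of 12 pan-leukocyte and 7 of 10 alveolar macrophage genes above the limit, against 8.9% of all 4775. The median C-AT2 signals of these 12 and 10 genes were 8.70 and 9.43, under the limit. Many were thus compared only because of their C-IAAP signal. The 9 and the 7 were also at least 2-fold higher in E-IAAPs on each of the 3 days. The mutant arrays did not enter the control difference itself, but they helped choose the spot that represents each gene. The lists were also chosen with earlier results of these data known, so this repeat is not fully independent. The next counts are over all 425 genes, of which 74 are in any list. On the 6 mutant arrays, 59 of the 425 passed limma's test of E-IAAPs against E-AT2s (Benjamini-Hochberg adjusted p under 0.05 over all 24306 genes, with the day as a block), all 59 higher in E-IAAPs. This is 13.9% of the 425, against 64 of all 4775 compared genes (1.34%) and 317 of all 24306 genes (1.3%). A broader set of 89 genes was at least 2-fold higher in E-IAAPs on each of the 3 days, against 125 of the 4775 (2.62%). Of the 425 genes, 174 (40.9%) were higher in E-IAAPs on all 3 days by any amount, against 18.0% of the 4775. The control arrays and the mutant arrays share no sample. The 3 days stand in for replicates of the mutants, and with any 1 of them left out 0 genes passed (2281 to 2362 at an unadjusted p under 0.05).

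**Figure D2:**
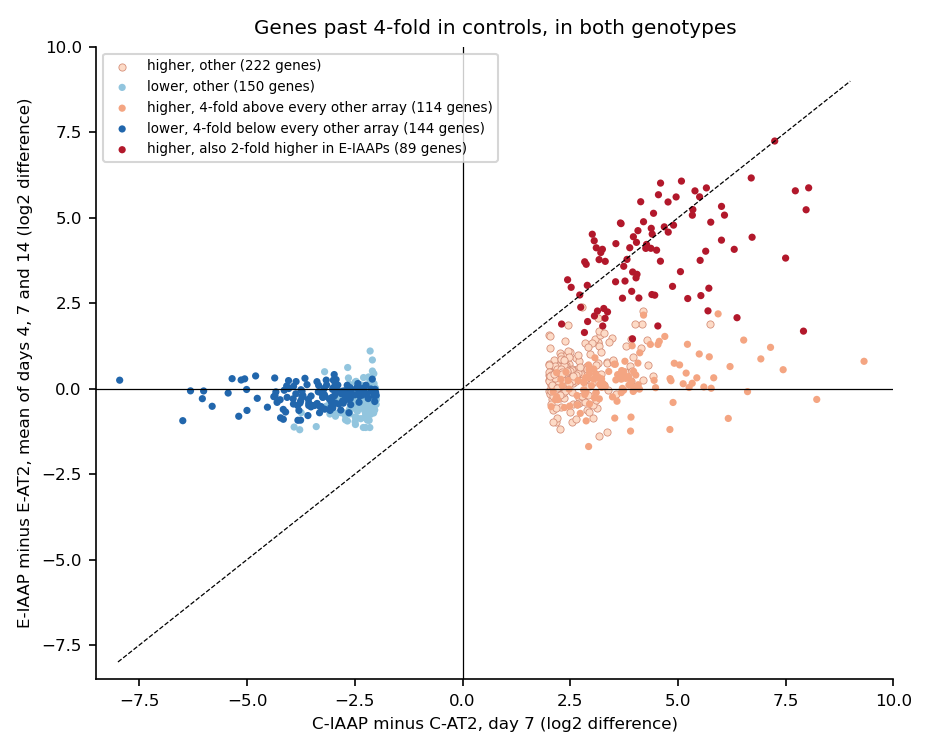
Log2 difference of 719 genes past 4-fold in controls, C-IAAP minus C-AT2 at day 7 (horizontal axis), against the mean log2 difference E-IAAP minus E-AT2 over days 4, 7 and 14 (vertical axis), 1 point per gene; the dashed line marks equal differences. The 89 genes 2-fold higher in E-IAAPs on each day lie around and below the line (6 of them are also 4-fold above every other array), while the 294 lower genes lie around 0 on the vertical axis, with medians of -0.24, -0.27 and -0.36 at days 4, 7 and 14.

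Pan-leukocyte genes were nearly as strong in control as in mutant Tom-low cells. Ptprc, the gene of CD45, had a log2 signal of 12.93 in C-IAAPs and 8.15 in C-AT2s, and 12.79, 12.38 and 12.75 in E-IAAPs against 7.67, 8.41 and 8.09 in E-AT2s at days 4, 7 and 14. All 4 Tom-low arrays lay above all 4 Tom-high arrays. The control difference was 27.4-fold, and in mutants the log2 difference in limma was 4.58 with a standard error of 0.33 (adjusted p = 0.0175). Tyrobp, a signalling adaptor of myeloid and natural killer cells, had 13.17 in C-IAAPs and 8.91 in C-AT2s, and 13.30 to 13.58 in E-IAAPs against 9.14 to 9.57 in E-AT2s. Laptm5, a lysosomal protein of blood cells, had 11.35 in C-IAAPs and 6.58 in C-AT2s, and 12.10 to 12.51 in E-IAAPs against 6.76 to 6.99 in E-AT2s. Of the 29 measured pan-leukocyte genes, 29 were brighter in C-IAAPs, and their medians were 9.64 in C-IAAPs and 6.42 in C-AT2s. The same 29 genes had medians of 9.88 to 10.03 on the E-IAAP arrays and 5.99 to 6.66 on the E-AT2 arrays. Itgb2, the shared chain of leukocyte integrins, was 21.6-fold higher in C-IAAPs, and Fcer1g, the chain through which Fc receptors signal, at least 16.0-fold. Rac2 and Srgn, a small GTPase and a granule proteoglycan of blood cells, were at least 8.62-fold and at least 17.0-fold higher.

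Alveolar macrophage genes followed, with a weaker signal in C-IAAPs than in E-IAAPs for most of the defining ones. Chil3, a chitinase-like protein secreted by these cells, had 14.51 in C-IAAPs and 10.31 in C-AT2s, and 15.30, 15.03 and 15.37 in E-IAAPs against 9.75, 9.96 and 11.33 in E-AT2s. Marco, a scavenger receptor, had 11.41 in C-IAAPs and 7.28 in C-AT2s, and 13.80, 13.45 and 13.56 in E-IAAPs against 7.30, 7.15 and 9.95 in E-AT2s. Ear10, an RNase A family member, had 11.68 in C-IAAPs and 7.13 in C-AT2s, and 12.84 to 13.32 in E-IAAPs against 6.95 to 8.45 in E-AT2s. In each of these genes the C-IAAP signal lay below the E-IAAP range and above every Tom-high array. Siglecf, a lectin of alveolar macrophages, had 8.92 in C-IAAPs, just above background, and 4.49 in C-AT2s, against 12.11 to 12.91 in E-IAAPs. Itgax (CD11c) had 7.32 and Fabp4, a fatty acid carrier, 5.77 in C-IAAPs, both below background, where E-IAAPs had 10.14 to 10.52 and 10.02 to 10.14. Among the 29 genes measured on the alveolar macrophage list 28 were brighter in C-IAAPs, and their medians were 9.07 in C-IAAPs and 5.26 in C-AT2s. On the mutant arrays the medians were 10.40 to 10.82 on the E-IAAP arrays and 5.95 to 6.84 on the E-AT2 arrays, and 17 of the 29 were above background in C-IAAPs and 11 in C-AT2s.

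**Figure D3:**
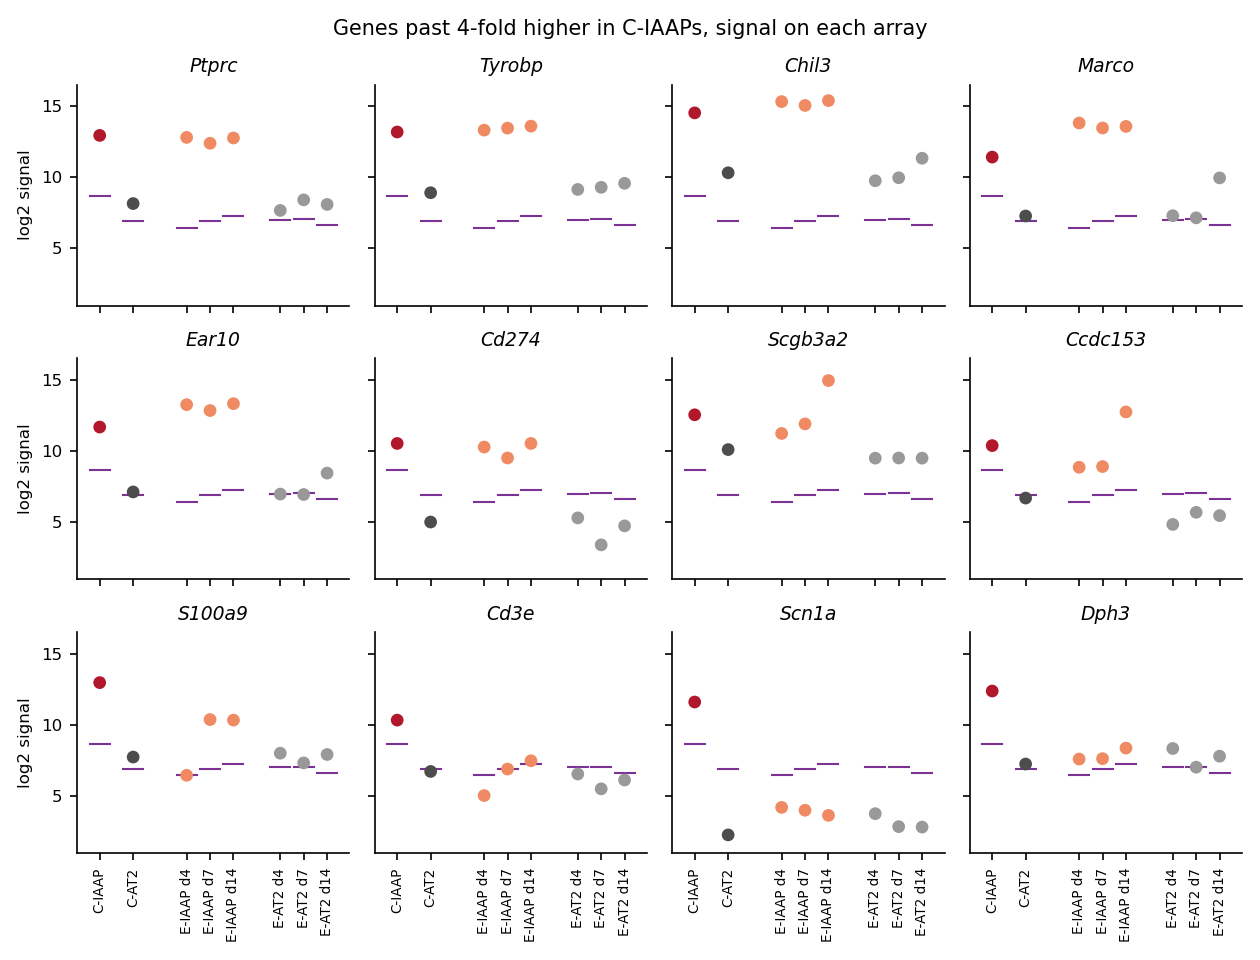
Log2 signal (vertical axis) of 12 genes past 4-fold higher in C-IAAPs on each of the 8 arrays (horizontal axis, controls at day 7, mutants at days 4, 7 and 14), 1 point per array; short lines give the background level of each array. Ptprc, Tyrobp, Chil3, Marco, Ear10 and Cd274 are high on all Tom-low arrays, whereas Cd3e, Scn1a and Dph3 are high on the C-IAAP array and far lower on the other 7.

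Innate recognition genes and 2 antigen handling genes were part of the same set. Of 10 MHC class II genes above the limit, 7 were brighter in C-IAAPs and 3 dimmer (median 0.46), with 2 past 4-fold higher. Cd74, the invariant chain gene, had 14.40 in C-IAAPs and 14.16 in C-AT2s. Clec7a, the beta-glucan receptor dectin-1, had 12.36 in C-IAAPs and 5.66 in C-AT2s, at least 43.4-fold, and a second spot differed by 5.74. Fcgr4, an activating receptor for immunoglobulin G, was at least 22.7-fold higher, and Sirpa, which restrains phagocytosis on binding CD47, was 11.8-fold higher. Ctss, the protease that trims the invariant chain of MHC class II, was 20.8-fold higher, with 13.58 in C-IAAPs and 9.20 in C-AT2s. H2-DMb2, a chain of the MHC class II peptide editor, had 10.05 in C-IAAPs and 5.52 in C-AT2s. Its E-IAAP signals of 10.05 to 10.49 lay above 7.78 to 8.99 in E-AT2s, but it did not pass in mutants (adjusted p = 0.0951).

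Cd274, the gene of the checkpoint ligand PD-L1 that restrains T cells, had 10.53 in C-IAAPs and 5.02 in C-AT2s, at least 12.2-fold. In mutants it had 10.28, 9.51 and 10.53 in E-IAAPs against 5.31, 3.42 and 4.75 in E-AT2s, which limma put at 5.61 on the log2 scale with a standard error of 0.33 (adjusted p = 0.0175). The Tom-low arrays of both genotypes were thus on one level for Cd274 and all Tom-high arrays below background. The pan-leukocyte and alveolar macrophage lists moved with it in both genotypes, and their part in the Cd274 signal was not tested.

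Other genes of macrophages and blood cells stood among the largest differences. The list of lipid uptake and efflux of macrophages did not move as a group. Of its 15 genes above the limit, 9 were brighter in C-IAAPs and 6 dimmer (median 0.30), with 3 past 4-fold higher. Ccl6, a chemokine of macrophages, had the highest fold once signals below background were set to that level, 64.5-fold, with 13.81 in C-IAAPs and 7.80 in C-AT2s. Vim, the intermediate filament protein vimentin of mesenchymal and blood cells, had 12.69 in C-IAAPs and 6.93 in C-AT2s, 54.2-fold, and 12.78 to 13.04 in E-IAAPs against 7.48 to 8.53 in E-AT2s. Abcg1, the cholesterol exporter of macrophages, was 50.6-fold higher, with 13.24 in C-IAAPs and 7.58 in C-AT2s. These 3 were higher in E-IAAPs too, with adjusted p of 0.0412, 0.0175 and 0.0277 in limma. Egr2, an immediate early transcription factor of myeloid cells, was 33.8-fold higher, Klra2, a lectin-like receptor, 25.7-fold, and Rnase2a, of the family of Ear10, at least 25.2-fold. The genes of the 89 with the smallest p in mutants included Il1rn, the interleukin-1 receptor antagonist, Axl, a receptor for dying cells, Alox5ap, needed for leukotriene synthesis, and Arhgdib and Lsp1, regulators of the leukocyte cytoskeleton, each with an adjusted p of 0.0175. Their control folds were at least 10.3, at least 8.51, 12.7, 8.60 and 8.32. P2ry13, a nucleotide receptor, and Tfec, a transcription factor of macrophages, were at least 11.9-fold and at least 8.46-fold higher, with C-AT2 signals of 2.77 and 2.76.

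Some airway genes were past 4-fold higher. Of 12 club and secretory genes above the limit, 7 were brighter in C-IAAPs and 5 dimmer (median 0.05), with 3 past 4-fold higher and 1 lower. Scgb3a2, a secretoglobin of club cells, had 12.54 in C-IAAPs and 10.10 in C-AT2s, and 11.23, 11.90 and 14.94 in E-IAAPs against 9.50, 9.51 and 9.50 in E-AT2s. Scgb3a1, its relative of the larger airways, had 12.11 in C-IAAPs and 9.24 in C-AT2s, and Aldh1a1, a retinal dehydrogenase of club cells, had 12.43 in C-IAAPs and 8.61 in C-AT2s. Of these 3 none passed in mutants (limma adjusted p = 0.259, 0.197 and 0.226), where E-IAAPs were highest at day 14. The lower one was Fmo2, a monooxygenase, at least 2.53-fold lower with a C-IAAP signal below background, and with the mean of all its spots its difference was 0.25. Of 6 ciliated genes above the limit, 3 were past 4-fold higher, against 8.9% of all genes. These 3, Ccdc153, Ccdc39 and 1110017D15Rik, were under the limit in C-AT2s. They were thus compared only because of their C-IAAP signal. Ccdc153, a gene of motile cilia, had 10.38 in C-IAAPs and 6.70 in C-AT2s, with 8.86, 8.91 and 12.74 in E-IAAPs against 4.85, 5.70 and 5.47 in E-AT2s. Ccdc39, needed for cilia assembly, had 10.03 in C-IAAPs and 8.02 in C-AT2s, with 9.40, 8.16 and 11.94 in E-IAAPs against 9.43, 7.39 and 7.97 in E-AT2s. Foxj1, the master factor of ciliated cells, was below background in C-IAAPs at 7.79 and had 2.03 in C-AT2s. Scgb1a1, the club cell secretory protein, had 15.91 in C-IAAPs and 15.95 in C-AT2s, both near the highest value an array holds, where a difference cannot be read. It had 15.78, 15.96 and 16.00 in E-IAAPs against 14.44, 15.05 and 15.25 in E-AT2s. Of 28 ciliated genes, 25 were brighter in C-IAAPs, against 942 of the 1382 sensory receptor genes. Their medians were 8.19 in C-IAAPs and 5.58 in C-AT2s, both below background, and 12 were above background in C-IAAPs and 10 in C-AT2s.

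Some genes of other blood cells were higher in C-IAAPs without the same repeat in mutants. Of 6 neutrophil genes above the limit, 3 were past 4-fold higher in C-IAAPs and 3 were dimmer. Past 4-fold higher were 3 of 4 T and natural killer cell genes and 2 of 3 B cell genes, against 8.9% of all genes. All of these past 4-fold were under the limit in C-AT2s and were compared only because of their C-IAAP signal. S100a9 and S100a8, the calgranulins of neutrophils, had 12.96 and 10.59 in C-IAAPs and 7.74 and 6.39 in C-AT2s. In mutants S100a9 had 6.46, 10.37 and 10.33 in E-IAAPs against 8.01, 7.33 and 7.92 in E-AT2s at days 4, 7 and 14, so the mutant day 4 array was at its background and the later ones above it. Retnlg, a resistin-like protein of neutrophils, had 10.53 in C-IAAPs and 6.79 in C-AT2s. Csf3r, the receptor of granulocyte growth factor, had 15.12 in C-IAAPs and 15.30 in C-AT2s and lay near the top of all 8 arrays. The T cell genes Cd3e and Cd4 had 10.33 and 11.28 in C-IAAPs and 6.73 and 8.97 in C-AT2s, but Cd3d had 4.99 in C-IAAPs and 6.25 in C-AT2s, both below background. The cytotoxic granule protease Gzma had 10.01 in C-IAAPs and 5.85 in C-AT2s, with 5.69, 10.34 and 8.99 in E-IAAPs against 6.61, 5.30 and 7.47 in E-AT2s. Ms4a1 (CD20) of B cells had 10.10 in C-IAAPs and 7.91 in C-AT2s, while Cd79a was below background on both control arrays.

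Hemoglobin genes were higher in C-IAAPs and varied as much between mutant arrays of both sorts. Hba-a1, an alpha globin, had 12.68 in C-IAAPs and 9.85 in C-AT2s, with 12.11, 9.13 and 10.17 in E-IAAPs against 12.36, 6.15 and 8.94 in E-AT2s. Hbb-bt, a beta globin, had 10.56 in C-IAAPs and 8.14 in C-AT2s, with 9.53, 6.06 and 8.01 in E-IAAPs against 10.29, 4.02 and 6.55 in E-AT2s. Among endothelial genes, Cdh5, the cadherin of vessels, had 10.56 in C-IAAPs and 6.49 in C-AT2s and at most 7.29 on mutant arrays. Pecam1, Cldn5 and Kdr, which define endothelium as well, were below background on both control arrays, at 4.98, 3.59 and 2.66 in C-IAAPs and 2.88, 4.40 and 2.25 in C-AT2s. Calcrl, a receptor of capillary endothelium, had 10.05 in C-IAAPs and 4.35 in C-AT2s. Col1a2, the collagen gene of fibroblasts, was below background on both, with 4.52 in C-IAAPs and 5.36 in C-AT2s.

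Within the 425, 120 genes were bright on the C-IAAP array alone: their signal there was over 4-fold above each of the other 7 arrays. The other 7 arrays each had 0 to 2 such genes. Only 6 of the 120 belong to the 89 genes shared with mutants. Predicted or unnamed genes made up 19.2% of the 120, against 2.2% of the 89, 19.8% of the 222 higher genes in neither group and 7.3% of all 4775. Scn1a, a sodium channel of neurons, had 11.60 in C-IAAPs and 2.28 in C-AT2s and 2.83 to 4.21 on the mutant arrays, at least 25.6-fold, while the other 4 spots of the gene were below background on the C-IAAP array. Dph3, a factor of diphthamide synthesis, had 12.37 in C-IAAPs and 7.25 in C-AT2s by 1 of its 3 spots, and another spot had 5.69 in C-IAAPs, below background, and 8.15 in C-AT2s. Other large differences were those of Tmem29, Gm12633 and Kif26b, a kinesin relative, which were 30.2-fold, 25.9-fold and at least 25.5-fold higher. Genes known from other tissues, named after their values were seen, were among the 120: Vmn1r47, a vomeronasal receptor, had 10.86 in C-IAAPs and 6.04 in C-AT2s, Taar9, a trace amine receptor, had 10.72 in C-IAAPs and 5.84 in C-AT2s, and Sprr2b, of the skin barrier, had 11.70 in C-IAAPs and 7.97 in C-AT2s. Of the sensory receptor genes 27 had a signal of 10 or more on the C-IAAP array, against 4 to 11 on each other array. F13a1, the factor XIII chain of monocytes and macrophages, was bright in C-IAAPs above all others and also 2-fold higher in E-IAAPs, with 11.94 in C-IAAPs and 5.56 in C-AT2s, and 6.37, 8.84 and 6.85 in E-IAAPs against 5.25, 5.43 and 5.15 in E-AT2s.

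Of the 294 lower genes, 144 were over 4-fold lower on the C-IAAP array than on each of the other 7 arrays, where every other array had 0 to 4 such genes, and 150 were not. None of the 294 was 2-fold lower in E-IAAPs than in E-AT2s on all 3 days, against 3 of the 4775 (0.0628%). None passed in limma (0 of 294, and 1 of all 24306 genes, 0.00411%, was called lower, with 2839 genes at an unadjusted p under 0.05 in either direction). By direction alone, 147 of the 294 (50.0%) were lower in E-IAAPs on all 3 days, against 27.6% of the 4775, with medians of -0.24, -0.27 and -0.36 at days 4, 7 and 14. The C-IAAP signal was below background for 213 of the 294. In limma's test of the difference between the control and mutant contrasts, which uses the control values that chose the genes and is only a description of them, 114 of the 294 lower genes passed as more negative in controls (2.41% of the 4775 and 2.83% of all genes did), and 54 of the 425 higher genes as more positive (1.15% and 1.54%). Taken from the background level, 142 were still past 4-fold lower, or 2.97% of the 4775.

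**Figure D4:**
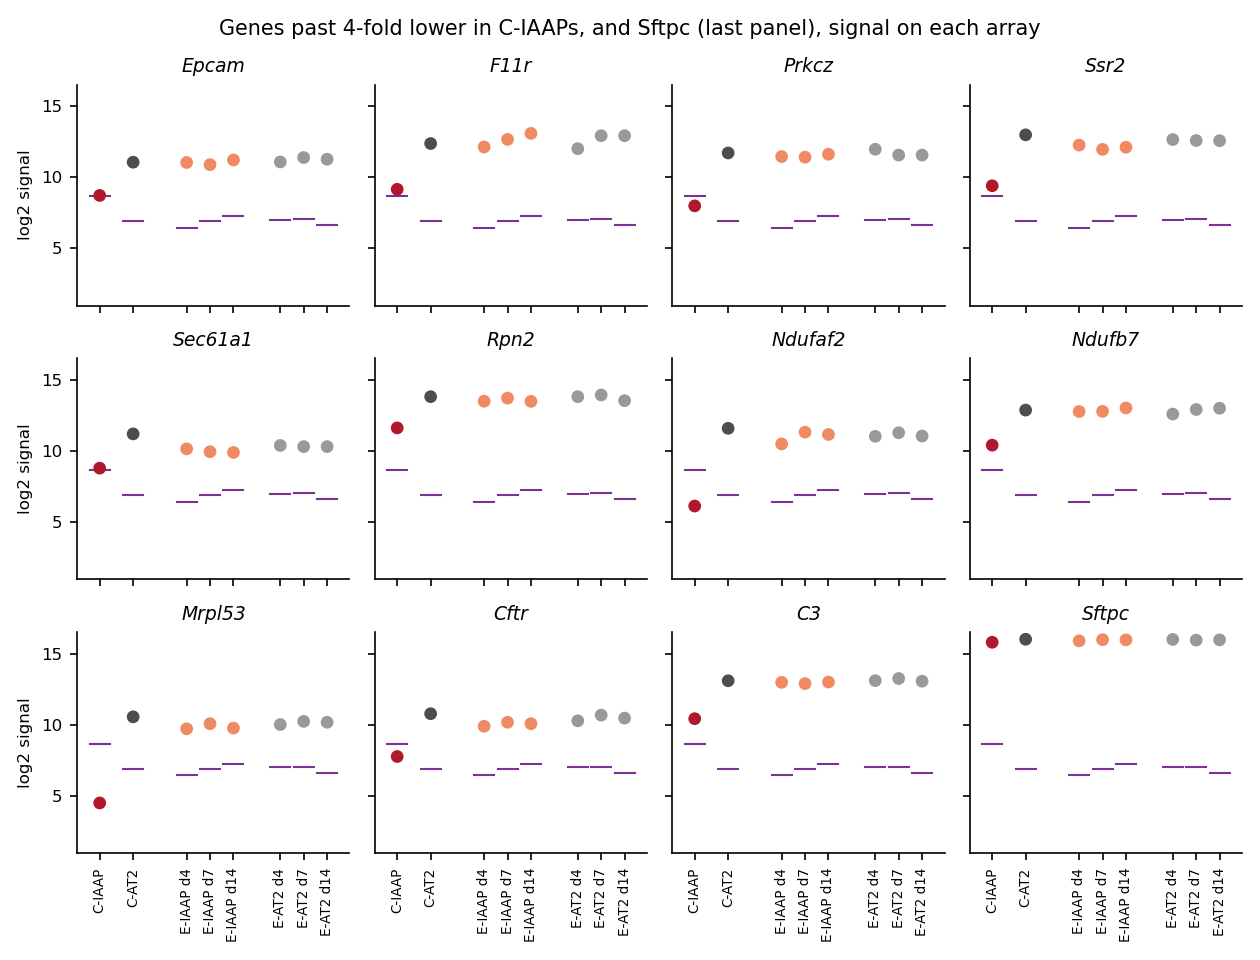
Log2 signal (vertical axis) of 11 genes past 4-fold lower in C-IAAPs and of Sftpc on each of the 8 arrays (horizontal axis), 1 point per array; short lines give the background level of each array. In the 11 genes the C-IAAP point lies under the other 7, while Sftpc lies between 15.79 and 16.00 on all 8 arrays.

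Genes of cell junctions and polarity, which hold epithelial cells together and set their apical side, were among the lower ones. Epcam, whose protein was used in the sort, had 8.72 in C-IAAPs and 11.05 in C-AT2s, 5.02-fold lower, and 10.88 to 11.38 on the 6 mutant arrays. Its C-IAAP signal was just above the background level of 8.66. F11r, the junctional adhesion molecule A, had 9.15 in C-IAAPs and 12.36 in C-AT2s, 9.27-fold lower. Prkcz, the atypical protein kinase C of the apical complex, had 7.99 in C-IAAPs and 11.70 in C-AT2s, at least 8.23-fold lower. Its partners Pard3 and Pard6b were 4.18-fold and at least 3.19-fold lower. Tjp1, the scaffold ZO-1 of tight junctions, had 7.96 in C-IAAPs and 10.64 in C-AT2s, Nectin2, an adhesion receptor, 7.65 in C-IAAPs and 10.52 in C-AT2s, and St14, the membrane protease matriptase, 6.24 in C-IAAPs and 10.11 in C-AT2s. With the spot brightest on the control arrays, the differences of Tjp1 and St14 were 0.02 and 0.17, so these calls rest on 1 spot. Of 22 junction genes above the limit, 14 were dimmer in C-IAAPs and 8 brighter, with a median of -0.19. On this list 4 were past 4-fold lower, 2 from the background level and 0 higher, against 6.16%, 2.97% and 8.9% of all genes. Not all epithelial genes were past 4-fold lower: Itga6 was brighter in C-IAAPs, and Nkx2-1 was dimmer by only -0.18. The polarity list, written after values had been seen, had 7 of 12 genes past 4-fold lower, and 4 from the background level, against the same shares of all genes.

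Genes of the secretory route were lower as well. On a list of entry into the endoplasmic reticulum, N-glycan transfer and transport to the Golgi, also written after values had been seen, 16 of 53 genes were past 4-fold lower and 0 higher, against 6.16% and 8.9% of all genes. From the background level 9 of the 53 were, against 2.97% of all genes. Ssr2, a subunit of the translocon-associated complex, was 11.9-fold lower, the largest fold of the 294 once signals below background were set to that level, with 9.40 in C-IAAPs and 12.97 in C-AT2s and 11.95 to 12.64 on mutant arrays. Its other spot, under the limit of 10, had 9.08 in C-IAAPs and 9.60 in C-AT2s. Sec61a1, the pore of the translocon, had 8.80 in C-IAAPs and 11.20 in C-AT2s, 5.26-fold lower. Rpn2, a subunit of oligosaccharyltransferase, had 11.62 in C-IAAPs and 13.81 in C-AT2s, 4.57-fold lower, with both signals well above background. Mia2, an export factor at exit sites of the endoplasmic reticulum, was at least 8.41-fold lower, though its 3 other spots above the limit differed by -1.47 to -0.49. Sar1b, the GTPase that starts coat assembly at these sites, was 4.54-fold lower, and the syntaxin Stx5a of the Golgi 4.57-fold. Creld2, a stress-induced chaperone, was 4.01-fold lower and the 1 of 19 unfolded protein response genes past 4-fold.

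Mitochondrial genes were spread over import, assembly, the respiratory chain and the mitochondrial ribosome. Of 38 respiratory chain genes, 35 were dimmer in C-IAAPs (median -0.90). Among them 5 were past 4-fold lower, 3 from the background level, against 6.16% and 2.97% of all genes. The mutant medians of the same 38 genes were 0.05, -0.26 and -0.21. Ndufb7, a complex I subunit, had 10.41 in C-IAAPs and 12.87 in C-AT2s, 5.50-fold lower, and 12.59 to 13.02 on mutant arrays. Sdhc, of complex II, had 9.55 in C-IAAPs and 11.74 in C-AT2s, 4.56-fold lower. Ndufaf2, an assembly factor of complex I, had 6.14 in C-IAAPs, below background, and 11.59 in C-AT2s, at least 7.60-fold lower. The import subunits Timm9 and Timm17b were at least 2.64-fold and at least 4.39-fold lower, and Phb2, the prohibitin scaffold whose promoter is shown, at least 3.93-fold. Mrps34 and Mrpl53 of the mitochondrial ribosome were 6.05-fold and at least 3.74-fold lower, and Mrpl18, also shown by its promoter, at least 3.42-fold. On the mitochondrial ribosome list, written after values had been seen, 9 of 24 genes above the limit were brighter in C-IAAPs and 15 dimmer. Past 4-fold, 3 of the 24 were lower and 0 higher, and 1 was still lower from the background level. Not every import and assembly gene was lower. Timm50, a receptor of the import channel, had 11.06 in C-IAAPs and 7.47 in C-AT2s, and Ndufaf7, another assembly factor, had 12.08 in C-IAAPs and 9.81 in C-AT2s. With the mean of all its spots the difference of Timm50 was -0.30. The import and assembly list was also written after values had been seen. On it 2 of 30 genes were past 4-fold higher beside 12 lower, and only 3 of the 12 were still so from the background level. Over all genes the shares were 8.9% higher, 6.16% lower and 2.97% lower from the background level.

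The cytosolic ribosome and the proteasome leaned the same way by less. Of 68 ribosomal protein genes, 57 were dimmer in C-IAAPs (median -0.56), and 2, Rps10 and Rpl21, were past 4-fold, at 5.58-fold and 4.68-fold lower. The other spots above the limit differed by 0.01 for Rpl21 and by -2.35 to -0.52 for Rps10, and 1 spot of Rps10 under the limit by -0.26. Of 24 proteasome genes 22 had a lower signal, with a median of -0.73, and Psmb7 was 4.89-fold lower at 9.22 in C-IAAPs and 11.51 in C-AT2s. Genes used by every cell had a median of -0.22 over 34 genes, with 0 past 4-fold either way. Their level on the C-IAAP array was shifted by 0.13 from the mean of all arrays, and by -0.21 on the C-AT2 array. These shifts of the list's median signal run opposite to the median of its differences, so centring moved these genes further from 0.

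Transport and secreted products of the alveolar surface completed the lower side. Cftr, the chloride channel of airway and alveolar fluid, had 7.78 in C-IAAPs and 10.78 in C-AT2s, at least 4.33-fold lower, though a second spot had 9.80 in C-IAAPs and 9.77 in C-AT2s. Slc26a9, another chloride channel, had 10.25 in C-IAAPs and 12.39 in C-AT2s, 4.40-fold lower. Slc15a2, the peptide carrier of AT2 cells, was at least 6.31-fold lower, and Slc25a23, a mitochondrial carrier of ATP and phosphate, at least 7.36-fold. C3, the central complement protein, had 10.43 in C-IAAPs and 13.09 in C-AT2s, 6.32-fold lower, and 12.89 to 13.25 on mutant arrays, but its other spot differed by -0.31. Of 12 ion and solute transport genes, 11 had a lower signal, with a median of -0.84, and 3 were past 4-fold, against 6.16% of all genes. Gpx4, the enzyme that repairs lipid peroxides, was 5.13-fold lower at 12.00 in C-IAAPs and 14.36 in C-AT2s. Of the 25 antioxidant and xenobiotic genes on its list above the limit, 2 were past 4-fold higher and 2 lower. Fzd5 and Nkd1, a receptor and a feedback inhibitor of the Wnt pathway, were at least 4.35-fold and at least 2.96-fold lower. Of 11 Wnt pathway genes above the limit, 4 were brighter in C-IAAPs and 7 dimmer (median -0.24). Past 4-fold, 2 were lower and 0 higher, against 6.16% and 8.9% of all genes, and 1 was still lower from the background level.

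**Figure D5:**
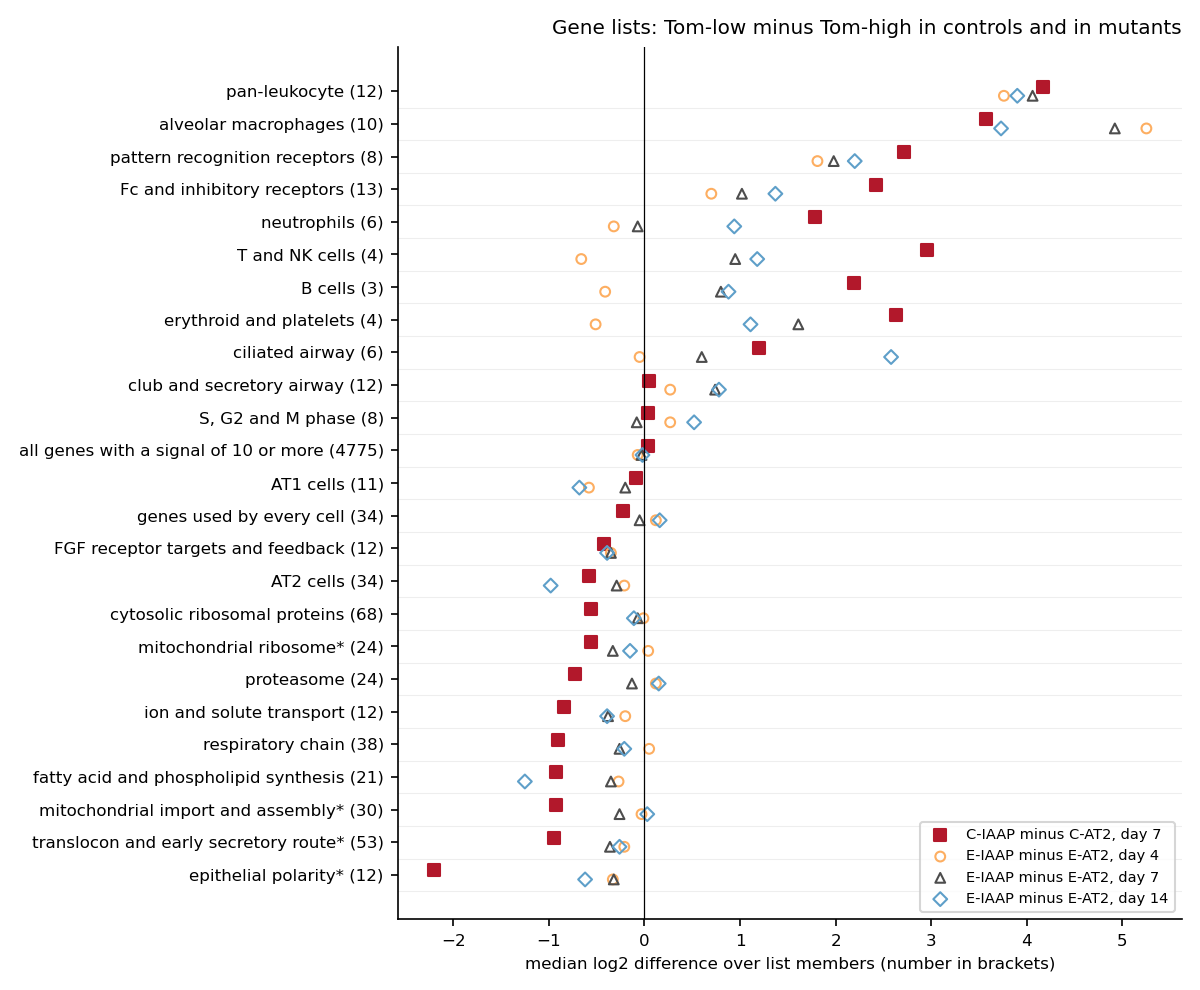
Median log2 difference (horizontal axis) of 24 gene lists and of all 4775 genes (vertical axis, with the number of genes above the signal limit), filled squares for C-IAAP minus C-AT2 at day 7 and open symbols for E-IAAP minus E-AT2 at days 4, 7 and 14; an asterisk marks lists written after values had been seen. Leukocyte and alveolar macrophage lists lie far to the right in both genotypes, while the mitochondrial, secretory and polarity lists lie left of 0 by more in controls than on any mutant day.

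Other genes with large lower differences were Tsr3, of ribosome maturation, with 9.28 in C-IAAPs and 12.62 in C-AT2s (10.2-fold), Gdpd2, a glycerophosphodiesterase, at 9.21-fold and Ext2, of heparan sulfate synthesis, at 7.75-fold. Gdpd2 was not steady on the mutant arrays, where it had 8.94, 11.29 and 11.22 in E-IAAPs and 8.44, 11.15 and 10.37 in E-AT2s. Msrb2, a mitochondrial methionine sulfoxide reductase, was 7.50-fold lower, and Ang4, an angiogenin of the RNase A family, Tmem106b, of lysosomes, and Tmem205 were at least 7.32-fold, at least 7.19-fold and at least 6.84-fold lower. Gm6867 and 2900009J06Rik, for which no role is given here, were 7.76-fold and at least 7.70-fold lower.

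Agreement between spots of 1 gene differed by direction. Of the 425 higher genes, 22 had another spot with a signal of 10 or more, and in 18 all such spots were at least 2-fold higher in C-IAAPs, while in 3 all ran the other way. Of the 294 lower genes, 40 had another such spot, and in 12 all were at least 2-fold lower, while in 14 all were higher. Over all 941 compared genes with another such spot, 258 (27.4%) had all other spots at least 2-fold the same way and 276 had all other spots opposite to the main one.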

How the data were processed

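RNA of sorted lung cells was amplified and hybridised to 8 mouse Agilent 1-colour arrays. The deposited values are log2 spot signals that the authors corrected for background with NormExp and quantile-normalized in limma (version not given in the sources used here), before replicate spots were averaged. Of 62976 spots, 43941 were given 1 gene symbol through the platform annotation and RefSeq, and 19035 none. Each of 24306 genes was represented by its brightest spot on average over the 8 arrays. Genes with a signal of 10 or more on either control array were compared by the difference of their log2 signals, with no test. limma 3.58.1 in R 4.3.3 tested E-IAAPs against E-AT2s with the day as a block, and the difference of the control and mutant contrasts over 4 groups, with Benjamini-Hochberg adjustment over all genes and a threshold of 0.05; the fits were tested on simulated data. The lone control arrays were assumed to vary as the mutant arrays did across days. The precision is limited by the number of arrays. Alternatives covered the normalization, the choice of spot, the signal limit, the day block and each day left out. Genes were named by size of difference (15 in each direction), as list members past 4-fold, as sort and identity genes, and by the smallest p. Other list members were named after their values were seen. Members and gene lists were chosen with earlier results of these data known, and 4 lists were added after values had been seen.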

Additional observations from a re-analysis of the deposited data

Results flagged for a closer look

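For 24 genes named above, the difference of C-IAAPs minus C-AT2s departed from that of E-IAAPs minus E-AT2s in limma's test of the difference between the contrasts. This test uses the control values by which the genes were chosen, and it takes each lone control array to vary as the mutant arrays did, so its values are a description. The control difference was the more positive one for 6 genes, with adjusted p in brackets: Dph3 (0.0304), Scn1a (0.0101), Sprr2b (0.0338), Taar9 (0.016), Timm50 (0.0369) and Vmn1r47 (0.0254). It was the more negative one for 18 genes: C3 (0.0361), Cftr (0.0397), Ext2 (0.0263), Mia2 (0.0274), Mrpl18 (0.0172), Mrpl53 (0.0101), Ndufaf2 (0.0149), Ndufb7 (0.0431), Prkcz (0.0215), Psmb7 (0.0443), Slc25a23 (0.0304), Ssr2 (0.0233), St14 (0.018), Timm17b (0.0378), Timm9 (0.0129), Tmem106b (0.0318), Tmem205 (0.0337) and Tsr3 (0.0228). With any 1 day left out, 0 of these passed. The high background level of the C-IAAP array moved with these results, and its part in them was not tested.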

How the results depend on the processing

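The count past 4-fold higher was 195 with the mean of all spots, 1159, 96 and 2703 with a signal limit of 8, of 12 and with none, against 425. The count past 4-fold lower was 532 with each array centred on genes used by every cell, 146 with the mean of all spots, and 1076, 30 and 2448 with a limit of 8, of 12 and with none, against 294. From the background level the lower count was 328 with centring, 82 with the mean of all spots and 30 with a limit of 12, against 142. Of the 425 and 294 genes themselves, 267 and 167 were still past 4-fold with the mean of all spots. With the spot brightest on the control arrays the differences of Tjp1, St14, Rpl21 and Cftr turned to 0.02, 0.17, 0.01 and 0.03, and with the mean of all spots those of Timm50 and Fmo2 turned to -0.30 and 0.25. In mutants, limma called 317 genes higher and 1 lower, and 0 and 0 with any day left out, so that 0 of the 59 shared genes were left; 15 were called lower without the day block, 2 with centring, and 115 higher and 2 lower among the 4775 genes alone. The difference of the contrasts was called for 375 and 687 genes, and for 0 and 0 with any day left out. Lower genes 2-fold lower in E-IAAPs on every day used numbered 0 to 8 with a day left out, against 0. The causes were not tested. Leaving out the mutant arrays of a day gave 136 to 148 genes bright and 152 to 159 dim on the C-IAAP array alone. The mutant test was paired by day, with 317 higher and 1 lower, against 468 and 15 without that pairing. Beyond the day, and for the controls, no paired analysis was possible because the labels give each group 1 replicate, numbered 1.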
